A study of Mus musculus with 9 samples.

Results

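The genes of the motile cilium were followed through a single-cell RNA sequencing study of mouse cortex, hypothalamus and brainstem. They were taken by name, as every gene whose symbol opens with Dnah, Dnai or Dnaic, Rsph, Cfap, Tekt, Ift or Spag (a number after the stem for all but Rsph and Spag). The rule found 78 of the 18634 genes in the table, of which 15 were dynein heavy chain genes, 2 dynein intermediate chain genes, 7 radial spoke genes, 25 Cfap genes, 5 tektins, 14 Ift genes and 10 Spag genes. Each library came from the pooled tissue of 3 C57BL/6 mice aged 9 to 11 weeks, for 1 region and 1 sleep group. The methods of the study name the strain as C57BL/6 J. The groups slept normally (NS), were kept awake for 12 h (SD), or were allowed recovery sleep after 12 h of deprivation (RS), with dissection at ZT12. The recovery is given as 12 h in one statement of the protocol and as 24 h in another.

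A motile cilium is built on an axoneme, a ring of microtubule doublets around a central pair. Axonemal dynein arms on each doublet slide it along its neighbour, and radial spokes, the central pair and the nexin links control where and when they do so. Tektins lie along the doublets, and many Cfap (cilia and flagella associated) proteins are doublet, spoke or central pair components. The Ift proteins carry cargo along every cilium, including the immotile primary cilium of many cell types. In the brain, ependymal cells that line the ventricles carry tufts of motile cilia that move cerebrospinal fluid.

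The table held 29571 cells in 9 libraries, numbered here in the order of their codes in the table. Only library 7 could be tied to a sample, the brainstem of normally sleeping mice. The other 8 libraries could not be matched to a region or sleep group, so no comparison between sleep groups was made and each library is given by its own value. Libraries held between 2575 and 3916 cells and from 1522766 to 5488950 unique molecular identifiers (UMIs, 1 per captured molecule), with a median of 402 to 1055 UMIs per cell. 542 barcodes occurred in 2 libraries and 7 in 3.

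Cells with at least 3 UMIs of Tmem212 and Ccdc153 together, a pair of genes typical of multiciliated ependymal cells, are called marker cells. There were 1389 of them among the 29571 cells, or 4.70%. Libraries 4 to 9 held 112, 141, 171, 143, 264 and 558 marker cells. Libraries 1 to 3 held none, and not 1 UMI of either gene was found in their 2575, 3175 and 2745 cells. The marker cells carried the RNA of other ependymal genes. All 8 genes of an ependymal list (Foxj1, Rarres2, Mia, Calml4, Hdc, Dynlrb2, Fam183b and Tm4sf1) were at least 2-fold higher in them, and the list summed to between 11088 and 12443 counts per 1000000 UMIs (CPM) against 107 to 1157 CPM in other cells. All 6 genes each of the microglial, endothelial, smooth muscle, neuronal and pituitary lists, and all 5 of the erythroid list, were at least 2-fold lower. These calls take all libraries together, where 9.17% of all genes were 2-fold higher and 8.55% lower. By library, the sums of the microglial, endothelial, smooth muscle, pituitary and erythroid lists overlapped between marker and other cells. Those of the neuronal list did not, at 20.6 to 49.2 against 201 to 3818 CPM. Of the 6 genes in each of the other lists, 3 fibroblast, 4 pericyte and 2 macrophage genes were 2-fold lower and none higher, and no oligodendrocyte gene was called in either direction. The glial and ventricular lists were mixed, with 2 astrocyte genes 2-fold higher and 3 lower, 2 choroid plexus genes higher and 2 lower, and 1 tanycyte gene higher and 1 lower. Marker cells were deeper to an unequal degree, with a median of 910 UMIs against 868 in library 4, 661 against 559 in library 5, 1798 against 1039 in library 6, 1882 against 899.5 in library 7, 1692.5 against 711 in library 8 and 1546 against 966 in library 9.

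Summed over all 78 genes, the level was about 10-fold higher in the marker cells, with smaller differences for the Ift transport genes than for the axonemal families. The 78 genes summed to 10351 CPM (95% exact Poisson interval 10233 to 10470) in marker cells and 987 CPM (975 to 998) in other cells. In libraries 4 to 9 the marker cells gave 12100, 11922, 11113, 10776, 10148 and 9487 CPM, while the other cells of all 9 libraries lay between 798 and 1255 CPM. No library of marker cells came near any library of other cells. The ratio within each of the libraries 4 to 9 was 11.9, 9.50, 12.5, 13.5, 11.3 and 9.30. Growth hormone (Gh) RNA took between 26.4% and 34.6% of the UMIs of other cells in libraries 4 to 6, against 1.20% to 2.05% in their marker cells. With totals counted without mitochondrial, hemoglobin, Gh, Prl, Pomc and Ttr UMIs, the ratios in these 3 libraries were 8.33, 6.43 and 7.59. Intervals here and below cover counting error only. The marker cells were chosen from the same counts and each condition has 1 library, so these values are a description and no p-value is given.

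Gene by gene, 65 of the 78 members were at least 2-fold higher in marker cells, with 10 CPM added to both levels, and none was at least 2-fold lower. On this scale a gene below 10 CPM in other cells cannot be called lower, even with no UMI in marker cells. Without the addition, the interval of the ratio lay below 1 for 3 members. Of all 16811 genes with at least 10 UMIs, 9.17% were at least 2-fold higher and 8.55% at least 2-fold lower. With at least 10 UMIs required in the other cells alone, so that marker cells play no part in the choice, 63 of 75 members were 2-fold higher, beside 9.15% of all genes. At 10-fold the members numbered 18, beside 0.791% of all genes. In each of the libraries 4 to 9 taken alone, 57 members were at least 2-fold higher, beside 5.59% of all genes. The median fold of the members was 5.32 and that of all genes 0.965. In library 7, the brainstem NS library, 63 of all 78 members were 2-fold higher with no minimum of UMIs, beside 10.6% of all genes. With at least 10 UMIs over both kinds of cells the count was 62 of 69 members, beside 14.3%. None was 2-fold lower, beside 11.5%, under the same limit on lower calls. With 10 UMIs in the other cells alone, 40 of 47 members were 2-fold higher, beside 11.9%. The families differed in size of the difference. Summed dynein heavy chains were 20.3 to 60.5 times as high in marker cells as in the other cells of the same library, intermediate chains 16.1 to 117 times, radial spoke genes 15.3 to 36.3 times, Cfap genes 13.3 to 22.2 times and tektins 12.5 to 39.0 times. The Ift genes, at 4.71 to 5.83 times, and the Spag genes, at 4.02 to 8.46 times, were lower than the other 5 families in every one of the 6 libraries. The ranges of these 2 groups of families did not overlap.

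**Figure D1:**
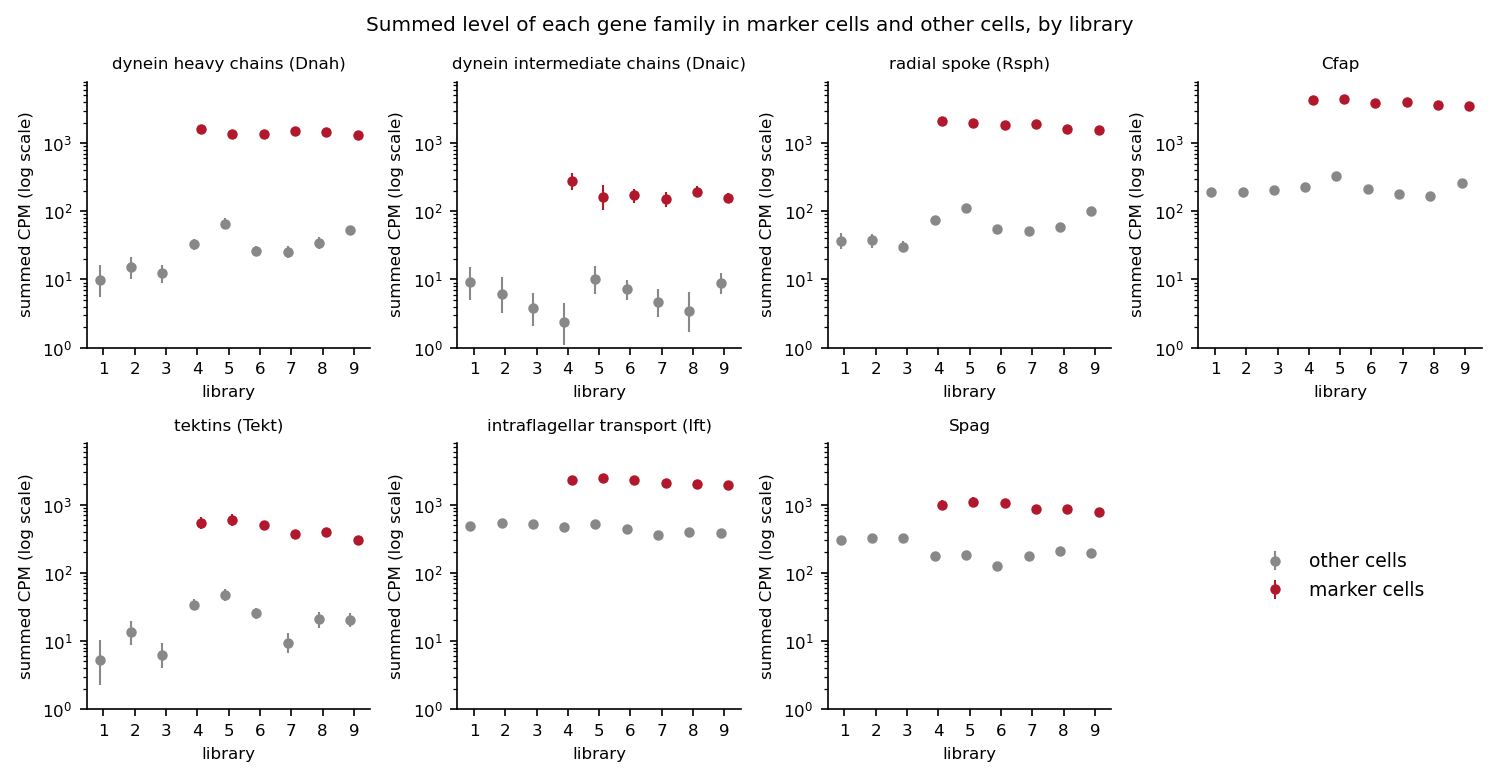
Summed CPM (log scale) of each gene family by library, with exact 95% Poisson intervals, in marker cells (red, libraries 4 to 9) and other cells (grey, libraries 1 to 9). The Ift, Cfap and Spag families keep a level of 126 to 537 CPM in other cells, while dynein heavy chains there lie between 9.85 and 66.0 CPM.

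The make-up of this RNA differed between the 2 kinds of cells. Ift genes gave 19.9% of all member UMIs in marker cells and 44.8% in other cells, whereas dynein heavy chains gave 13.5% and 3.10%. The 5 members with the most UMIs gave 27.4% of the total in marker cells. UMIs mark the 3′ ends of transcripts, so these levels count molecules and are not divided by gene length.

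The dynein heavy chains are the motors of the axoneme. Dnah5, Dnah9, Dnah11 and Dnah8 belong to outer arms, and most of the others to inner arms. Dnah12, an inner arm chain, was the most abundant, with 404, 333, 267, 474, 395 and 347 CPM in the marker cells of libraries 4 to 9. In the other cells of libraries 1 to 9 it lay between 0 and 9.26 CPM. All 6 marker values stood far above all 9 others. It was found in 39.7% of marker cells and in 0.302% of other cells. Thinned to 500 UMIs per cell, these shares were 14.0% and 0.165%. Dnah6, of the inner arms, had 279, 196, 233, 232, 270 and 203 CPM in marker cells against at most 8.20 CPM elsewhere. Dnah5, the outer arm chain most often mutated in human primary ciliary dyskinesia, had 197, 170, 170, 196, 264 and 194 CPM against at most 5.03 CPM. The level ratios over all libraries were 107 (86.8 to 133) for Dnah12, 79.2 (63.0 to 101) for Dnah6 and 83.4 (65.0 to 108) for Dnah5.

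The outer arm partner Dnah9 had a smaller ratio of 21.6 (17.9 to 26.2). Its marker cells gave 175, 157, 143, 117, 118 and 103 CPM, and its other cells 10.0, 19.8 and 7.52 CPM in libraries 4, 5 and 6 but at most 5.56 CPM in the remaining 6 libraries. Dnah1, Dnah10, Dnah11, Dnah2 and Dnah3 lay between 55.6 and 75.9 CPM in marker cells, with ratios of 25.0 for Dnah1, 79.3 for Dnah10, 45.0 for Dnah11, 43.1 for Dnah2 and 99.5 for Dnah3. The near-identical genes Dnah7a, Dnah7b and Dnah7c, all on chromosome 1, had 56.7, 51.8 and 25.2 CPM, and how reads that fit more than 1 of them were assigned is not given in the sources used here. Of the 15 genes, 12 were at least 2-fold higher. Dnah14 fell just short, at 10.5 against 0.350 CPM and a fold of 1.98 on the scale with 10 CPM added. Dnah8, known as an outer arm chain of sperm, had 3 UMIs in marker cells, all in library 7, and 10 in other cells. Dnah2os, an antisense gene that overlaps Dnah2 on chromosome 11, had no UMI in marker cells, which allows up to 1.05 CPM (the level of 3 counts), and 46 UMIs (1.61 CPM) in other cells. Whether its reads were kept apart from those of Dnah2 is not given in the sources used here.

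The intermediate chains hold the outer arm together at its base. Dnaic1 had 120, 84.9, 106, 95.4, 117 and 82.1 CPM in marker cells and at most 9.19 CPM in other cells, a value reached in library 1. Dnaic2 had 158, 78.4, 64.5, 53.8, 77.2 and 74.8 CPM in marker cells and at most 4.06 CPM in other cells. Both were at least 2-fold higher in all 6 libraries, with ratios of 25.8 (20.6 to 32.5) and 37.0 (27.6 to 50.2).

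The radial spokes reach from the doublets to the central pair. Rsph1, a protein of the spoke head, had the highest level of any member, at 1284, 1169, 1189, 1259, 937 and 968 CPM in the marker cells of libraries 4 to 9. In other cells it had 0.657, 1.55 and 3.27 CPM in libraries 1 to 3 and between 15.6 and 52.9 CPM in libraries 4 to 9. The other cells therefore split by whether their library held marker cells, as 3 low and 6 higher values that did not overlap. A UMI of Rsph1 was seen in 77.9% of marker cells and 1.84% of other cells, or in 40.9% and 0.992% at 500 UMIs per cell. Rsph4a, another head protein, had 196 against 3.32 CPM and Rsph14 45.5 against 1.05 CPM. Rsph9 was 261 CPM in marker cells, but with 22.6 CPM in other cells its ratio was only 11.6 (10.4 to 12.9). Unlike Rsph1 it kept 26.3, 28.4 and 19.3 CPM in libraries 1 to 3. Rsph10b had 100 against 6.99 CPM. The stalk genes Rsph3a and Rsph3b, near copies of each other, had 26.9 and 9.10 CPM, and Rsph3b, at a fold of 1.66, was the 1 gene of this family below 2-fold.

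Among the 25 Cfap genes, 23 were at least 2-fold higher and 20 were so in each of the 6 libraries. Cfap126, also called flattop, had 782, 758, 606, 614, 618 and 624 CPM in marker cells. It was found in 63.9% of marker cells and 1.25% of other cells, or in 28.9% and 0.658% at 500 UMIs per cell. In other cells it was at 1.03 to 1.63 CPM in libraries 1 to 3 and 8.39 to 37.0 CPM in libraries 4 to 9. Cfap54, a central pair protein, had 355, 307, 323, 418, 386 and 418 CPM in marker cells and at most 11.4 CPM in other cells. Cfap161 had 306, 405, 327, 330, 398 and 285 CPM in marker cells, and no UMI in the other cells of libraries 1 to 3. Cfap77 followed with 255 against 3.32 CPM. These 4 genes had ratios of 41.3 (37.2 to 46.0), 70.1 (59.3 to 83.3), 71.2 (59.3 to 86.1) and 76.8 (62.0 to 96.2). Cfap20, which binds microtubules and is not limited to motile cilia, had a similar 251 CPM in marker cells but 52.5 CPM in other cells, a ratio of 4.78 (4.37 to 5.23), and lay between 34.3 and 73.5 CPM in the other cells of all 9 libraries. Cfap36 behaved likewise, at 177 against 53.8 CPM.

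The Cfap genes below or near 2-fold were of different kinds. Cfap97 had 39.5 CPM in marker cells and 26.5 CPM in other cells, and its lowest marker library (19.6 CPM) lay below its highest library of other cells (33.6 CPM). Cfap73 had only 22 UMIs in marker cells and 4 in other cells, so that its ratio of 55.1 had an interval from 18.7 to 220 while its fold with 10 CPM added was 1.75. Cfap58 and Cfap99 were rare too, at 16.1 and 11.9 CPM in marker cells, with folds of 2.52 and 2.14. Cfap221 was uneven among libraries, with 105 CPM (59.7 to 170) in the marker cells of library 5 and 9.78 to 32.8 CPM in those of the other 5 libraries.

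**Figure D2:**
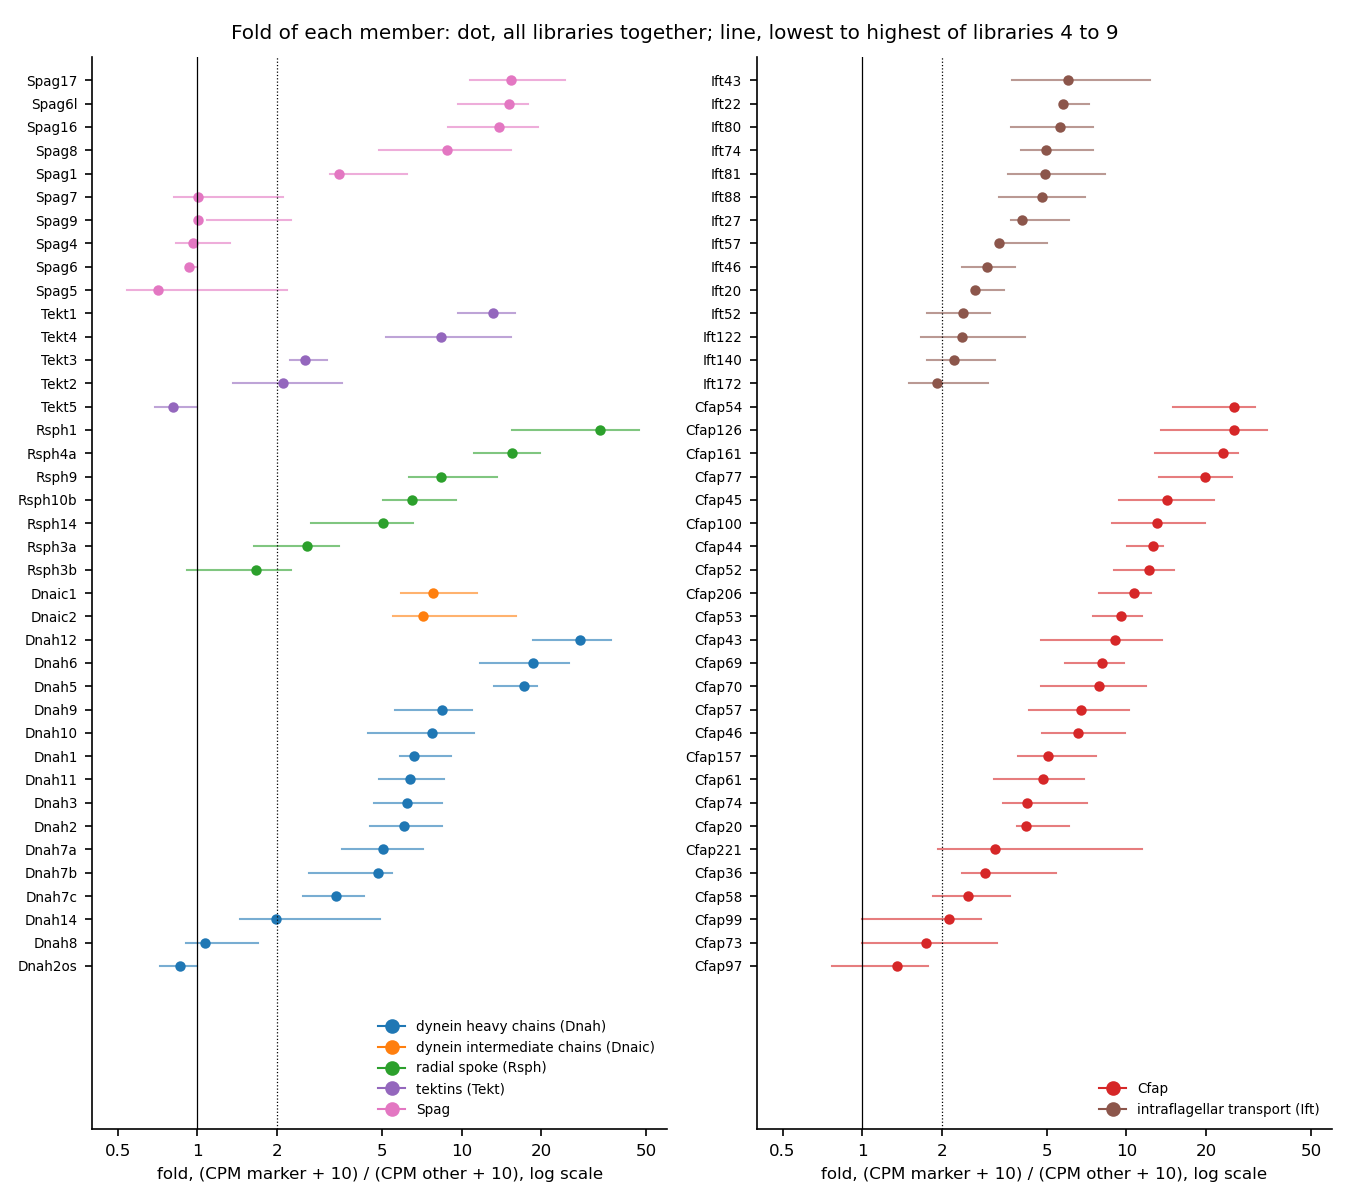
Fold of each member, (CPM in marker cells + 10) / (CPM in other cells + 10), on a log scale. Dots give all libraries together, lines the lowest and highest of libraries 4 to 9, the solid vertical line a fold of 1 and the dotted line 2; 65 of 78 dots lie right of the dotted line. The dots also count the other cells of libraries 1 to 3, which have no line, and those of Ift22, Ift57, Spag6 and Spag9 lie left of their lines.

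The tektins are filament proteins of the doublets. Tekt1 had 344, 385, 295, 196, 266 and 197 CPM in marker cells and Tekt4 153, 170, 168, 122, 89.3 and 72.0 CPM. Tekt1 in other cells reached 17.7, 22.9 and 13.7 CPM in libraries 4 to 6, at most 11.4 CPM in libraries 7 to 9 and at most 1.55 CPM in libraries 1 to 3. Tekt3 had 46 UMIs in marker cells and 6 in other cells, a ratio of 76.7 (32.7 to 220). Tekt2 was the weakest of the 4 that were 2-fold higher, at 19.2 against 3.88 CPM, and was 2-fold higher in 3 of 6 libraries. Of its 111 UMIs in other cells, 91 came from libraries 4 to 6. Tekt5, known from sperm, went the other way, with 1 UMI in marker cells and 79 in other cells, a ratio of 0.127 (0.00317 to 0.727).

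The Ift genes, which serve primary as well as motile cilia, were present in both kinds of cells. Ift20 had 448, 477, 500, 374, 345 and 322 CPM in marker cells and between 102 and 181 CPM in the other cells of all 9 libraries, a ratio of 2.79 (2.61 to 2.99). Ift43, of the retrograde complex A, had 305 against 42.6 CPM. Its fold over all libraries, 5.99 with 10 CPM added, was the largest of the family. Without that addition its ratio of 7.16 was below those of Ift80 (8.77), Ift88 (8.54) and Ift74 (7.28). For Ift43 the other cells gave 66.1, 76.6 and 65.1 CPM in libraries 7 to 9 but 19.8 to 40.1 CPM in libraries 1 to 6. Ift22 and Ift27, both small GTPases of complex B, had 296 against 43.2 CPM and 222 against 47.6 CPM, and Ift81, which binds tubulin cargo, 146 against 21.8 CPM. Of the 14 genes, 13 were at least 2-fold higher over all libraries and 10 in each of the 6 libraries. The lowest folds were those of the complex A genes Ift122 and Ift140, at 2.38 and 2.22, and of Ift172, a complex B protein, at 1.92 (52.5 against 22.6 CPM). For all 14 genes every library of marker cells stood above every library of other cells, Ift172 included, at 44.0 to 65.6 against 13.3 to 31.9 CPM. How many of all genes separate in this way was not counted, so this is a description.

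The Spag genes share a name, sperm-associated antigen, rather than a function, and their values fell into several kinds. The central pair genes Spag6l, Spag16 and Spag17 were 15.1-fold, 13.8-fold and 15.4-fold higher. Spag17 had 268, 176, 221, 161, 163 and 129 CPM in marker cells, no UMI in libraries 1 to 3 and at most 5.59 CPM in other cells, a ratio of 119 (85.8 to 168). Spag8 had 102 against 2.76 CPM and Spag1, a dynein assembly factor, 43.0 against 5.38 CPM. Spag9, a scaffold of JNK signalling, had 110 against 109 CPM, a ratio of 1.01 (0.893 to 1.13), and Spag7 75.9 against 75.1 CPM, also 1.01 (0.875 to 1.16). Within libraries 4 to 9 the folds of Spag7 ran from 0.819 to 2.11, and it was 2-fold higher in 1 library. For Spag9 the other cells of libraries 1 to 3 were high, at 171, 210 and 215 CPM, and within libraries 4 to 9 marker cells had 100 to 131 CPM against 49.5 to 101 CPM. Spag5, a spindle protein of dividing cells, had 4 UMIs in marker cells, 3 of them in library 5, and 173 in other cells, a ratio of 0.231 (0.0624 to 0.603). Spag4 had 3 and 43 UMIs. Spag6, a near copy of Spag6l, had no UMI in marker cells and 23 in other cells, 22 of them in libraries 1 to 3, whereas Spag6l had 610 UMIs in marker cells. How reads that fit both copies were assigned is not given in the sources used here.

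The genes turned on together in multiciliated cells include many with an X-box, the site read by RFX transcription factors, in their promoters. RefSeq promoters of GRCm38.p6, from 250 bases before to 50 after the start, were found for 64 of the 78 members. The motif GTTNCCNNNGNNAC, searched on both strands, was in 12 of these 64 (18.8%) and in 2.53% of 27025 genes with a promoter of the same length. The stricter GTTNCCNNGGNAAC, which is a part of it, was in 0 of 64 and in 0.529% of all genes. The shorter GTTGCC, which overlaps both, was in 25 of 64 (39.1%) against 14.1% of all genes, and the forkhead core GTAAACA in 3 of 64 (4.69%) against 4.05%. Of the 12 members with the first motif, 11 were at least 2-fold higher in marker cells, as were 54 of all 64. The windows below show the match where it lay before the start and outside the annotated gene, in capitals, 5′ to 3′ on the strand of the gene. They are shown so that the matched letters of members with folds of 13.8 (Spag16), 12.7 (Cfap44), 10.7 (Cfap206), 5.74 (Ift22), 3.31 (Ift57) and 0.710 (Spag5) can be compared. Ift22 had a pair of matches, which share part of their windows, and both are shown. A match is a description of the letters and does not show that a factor binds there.
Spag16, chr1:69826844-69826903, plus strand: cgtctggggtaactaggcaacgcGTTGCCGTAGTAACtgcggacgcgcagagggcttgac
Cfap44, chr16:44394736-44394795, plus strand: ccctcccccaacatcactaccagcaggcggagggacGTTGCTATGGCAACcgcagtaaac
Cfap206, chr4:34730207-34730266, minus strand: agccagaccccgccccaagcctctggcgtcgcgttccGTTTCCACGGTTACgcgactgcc
Ift22, chr5:136908064-136908123, plus strand: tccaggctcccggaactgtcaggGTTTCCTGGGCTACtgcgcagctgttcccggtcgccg
Ift22, the match nearer the start, chr5:136908090-136908149, plus strand: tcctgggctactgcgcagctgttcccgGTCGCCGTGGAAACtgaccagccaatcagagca
Ift57, chr16:49699173-49699232, plus strand: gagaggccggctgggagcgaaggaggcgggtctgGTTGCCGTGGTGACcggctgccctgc
Spag5, chr11:78301382-78301441, plus strand: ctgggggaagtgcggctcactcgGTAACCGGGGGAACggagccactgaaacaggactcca

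The members came together in single cells. With every cell thinned to 500 UMIs and 51 marker and 5694 other cells of fewer UMIs left out, marker cells held a median of 5 distinct members and other cells a median of 0. At least 5 members were seen in 50.7% (48.0 to 53.5, exact binomial interval) of the 1338 marker cells and in 0.369% (0.294 to 0.457) of the 22488 other cells. The share in marker cells was 68.9%, 59.8%, 57.9%, 52.4%, 49.0% and 43.9% in libraries 4 to 9. Of the 83 other cells with at least 5 members, 69 held 1 or 2 UMIs of the marker genes, 14 held none and 0 came from the 4724 cells of libraries 1 to 3 with 500 UMIs or more. That 0 rests on the depth, since at 1000 UMIs per cell 7 of the 1877 cells left in libraries 1 to 3 held at least 5 members, among 99 of 9605 other cells in all, and without thinning 196 of their 8495 cells did, among 673 of 28182. The member level followed the number of marker-gene UMIs in a cell. It was 927 CPM in cells with none, 1594 CPM with 1, 6816 CPM with 2, 9033 CPM with 3, 9336 CPM with 4, 9664 CPM with 5 to 9 and 10826 CPM with 10 or more. Cells with 2 marker UMIs, which were counted as other cells, thus resembled the marker cells more than those with none. There were 158 such cells.

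**Figure D3:**
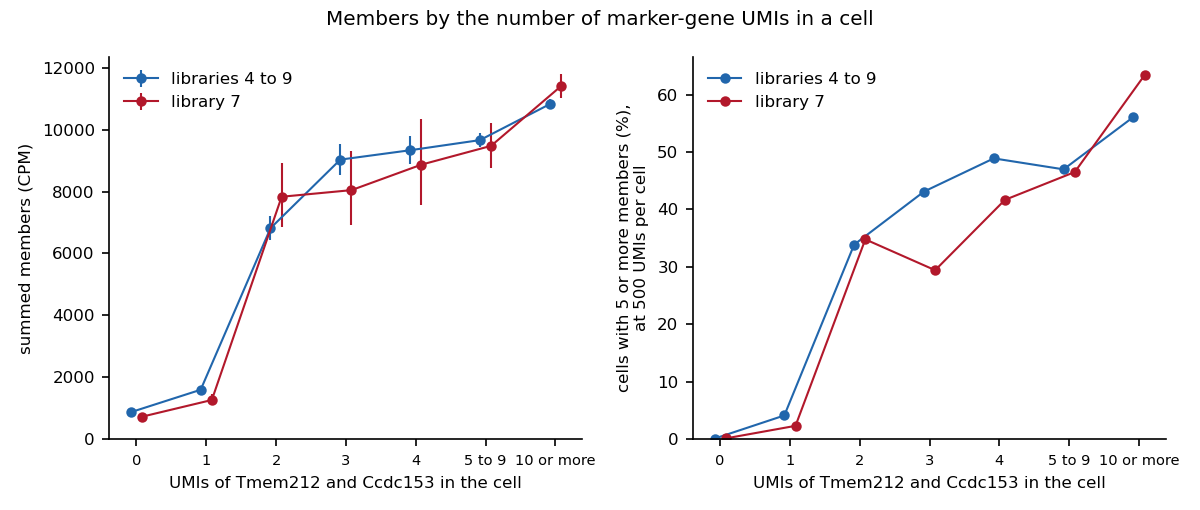
Left, summed CPM of the members (points, with exact 95% Poisson intervals) and right, the share of cells with at least 5 distinct members after thinning to 500 UMIs, against the UMIs of Tmem212 and Ccdc153 in the cell. Libraries 4 to 9 together (blue) and library 7 alone (red) both step up between 1 and 2 marker UMIs, from 1594 to 6816 CPM and from 1264 to 7833 CPM.

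Member UMIs were also counted in the 3 libraries with no marker cells, where RNA made in a cell and free RNA caught with it were not told apart. In libraries 1 to 3, 10 members had no UMI at all, namely Spag16, Spag17, Cfap161, Cfap221, Cfap73, Tekt3, Rsph14, Dnah3, Dnah11 and Dnah8. No share of all genes without a UMI there was taken, so absence is not read as a trait of the members. Spag9, Ift20, Spag7, Ift27, Cfap36 and Cfap20 gave the most, with 1456, 959, 630, 512, 479 and 465 UMIs. Libraries 4 to 6 differed in another way. Among their cells without a UMI of either marker gene, Rsph10b had 129 UMIs, Dnah9 106, Cfap70 101 and Tekt2 84, whereas Dnah12 had 7 and Spag17 had 7. In the marker cells of the same libraries Dnah12 had 241 UMIs and Spag17 172. Dnah9 had 118 there, Rsph10b and Cfap70 had 100 each, and Tekt2 had 15. In the cells without marker UMIs of libraries 7 to 9, Dnah9 had 15 UMIs and Dnah12 18. The UMIs of cells without marker UMIs were spread over many cells, with the 106 of Dnah9 in libraries 4 to 6 in 104 cells, the 129 of Rsph10b in 125 and the 84 of Tekt2 in 82.

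Within libraries 4 to 6, cells without a marker UMI were divided by the share of their UMIs that came from Gh, at 50%, a value chosen after seeing the data. Gh took at least 50% in 3107 cells and less in 6356, and 1011 of the former and 349 of the latter lay between 40% and 60%. A total that includes Gh lowers every other gene in the cells where Gh dominates, so levels are given here per 1000000 UMIs without Gh, and the folds on both totals. Dnah9 had 43.8 CPM where Gh dominated against 6.65 CPM where it did not, a ratio of 6.59 (4.36 to 10.1), Cfap70 38.6 against 7.17 CPM, 5.39 (3.56 to 8.22), and Cfap61, from 28 and 13 UMIs, a ratio of 7.93 (3.97 to 16.7). Without Gh in the totals, 14 members were higher in each of the 3 libraries. On both totals 4 were, these 3 genes and Dnah8, which had only 6 and 2 UMIs. The share of all genes higher in each of the 3 libraries was not counted. The other members singled out above moved less, with Rsph10b at 20.6 against 17.0 CPM, 1.21 (0.788 to 1.83), and Tekt2 at 18.7 against 9.62 CPM, 1.94 (1.19 to 3.10). Both were lower where Gh dominated when Gh was kept in the total, at ratios of 0.452 and 0.722. Rsph1 had 23.2 against 24.0 CPM, 0.967 (0.650 to 1.40). With Gh left out of the total, 4 of 59 members (Dnah9, Cfap70, Cfap61 and Ift20) were 2-fold higher on the scale with 10 CPM added, beside 2.85% of 14444 genes, and 0 were 2-fold lower, beside 6.89%. With Gh in the total the counts were 0, beside 0.118% of 14445 genes, and 10, beside 26.1%. On either total, a gene below 10 CPM where Gh did not dominate cannot be called lower.

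The study listed cell type names for 1999 cells of library 7, and 88 of these were named EPC (ependymocytes). All 66 marker cells on the list were EPC, 17 further EPC held 1 or 2 marker UMIs and 5 held none. The names were made by the study from these same cells and all their genes, so what follows is a description. EPC had 10335 CPM (9857 to 10829) of the 78 members and the other 1911 cells 741 CPM (704 to 779). Among types of at least 50 cells, astrocytes came next at 1094 CPM, followed by pericytes at 987, arterial smooth muscle cells (VSMCA) at 863, endothelial cells at 760, glutamatergic neurons at 591, macrophages at 518 and microglia at 515 CPM. The intervals of neighbours in this order overlapped below EPC, for example 943 to 1263 CPM in astrocytes and 833 to 1161 CPM in pericytes. Among smaller types, oligodendrocytes (43 cells) had 785 CPM, other neurons (18 cells) 1087 CPM and 1 cell named Unknown 4701 CPM, from 7 UMIs. Hemoglobin-expressing vascular cells, with 19 cells, had the lowest level of 159 CPM (64.0 to 328), also from 7 UMIs. Hemoglobin UMIs were kept in these totals, and no level without them is given here.

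Of the 78 members, 74 had a UMI in the listed cells, and 62 of these had their highest level in EPC, beside 13.3% of all 16229 genes with a UMI there. At 10 UMIs or more in the listed cells, the count was 49 of 57, beside 11.8% of 11674 genes. However, 32 of these 57 members had fewer than 10 UMIs outside EPC and would not have entered without their UMIs in EPC. Of the 25 members with at least 10 UMIs outside EPC, 18 were highest in EPC, beside 9.4% of 11133 genes. Cfap126, Cfap52 and Ift20 were highest in a single cell named Unknown, and in EPC when types of fewer than 50 cells were left out. Some members were found among the listed cells in EPC only. They were Spag17, Cfap70, Dnah7a and Cfap53 with 26, 21, 13 and 10 UMIs, Dnah7c with 4, Cfap221 and Rsph14 with 2 each and Cfap58 with 1. The share of all genes found only in EPC was not counted, so this list is a description. Rsph1 had 1367 CPM in EPC and 12.0 CPM in the other cells, Dnah12 446 and 0.481 CPM, and Cfap126 728 and 12.0 CPM. Dnah14, Spag6, Cfap99 and Cfap73 had no UMI in the listed cells.

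Among types of at least 50 cells, 9 members were highest outside EPC. Of these, Dnah2os, Spag4, Spag5 and Tekt5 had 5, 3, 2 and 1 UMIs in the listed cells, none of them in EPC. The other 5 were Spag9, Ift172, Spag7, Ift52 and Cfap97. Spag9 had 147 CPM (95.2 to 217) in astrocytes and 76.3 CPM (40.6 to 130) in EPC. Ift172 had 52.4 CPM (36.3 to 73.3) in endothelial cells and 41.1 CPM (16.5 to 84.6) in EPC. Spag7 had 94.6 CPM in pericytes and 76.3 CPM in EPC, and Ift52 and Cfap97 had 36.1 and 48.2 CPM in macrophages against 29.3 and 46.9 CPM in EPC. For these 5 genes the intervals of the 2 types overlapped. Ift43 was highest in EPC, at 282 CPM (208 to 373), with arterial smooth muscle cells close to it at 234 CPM (183 to 294).

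**Figure D4:**
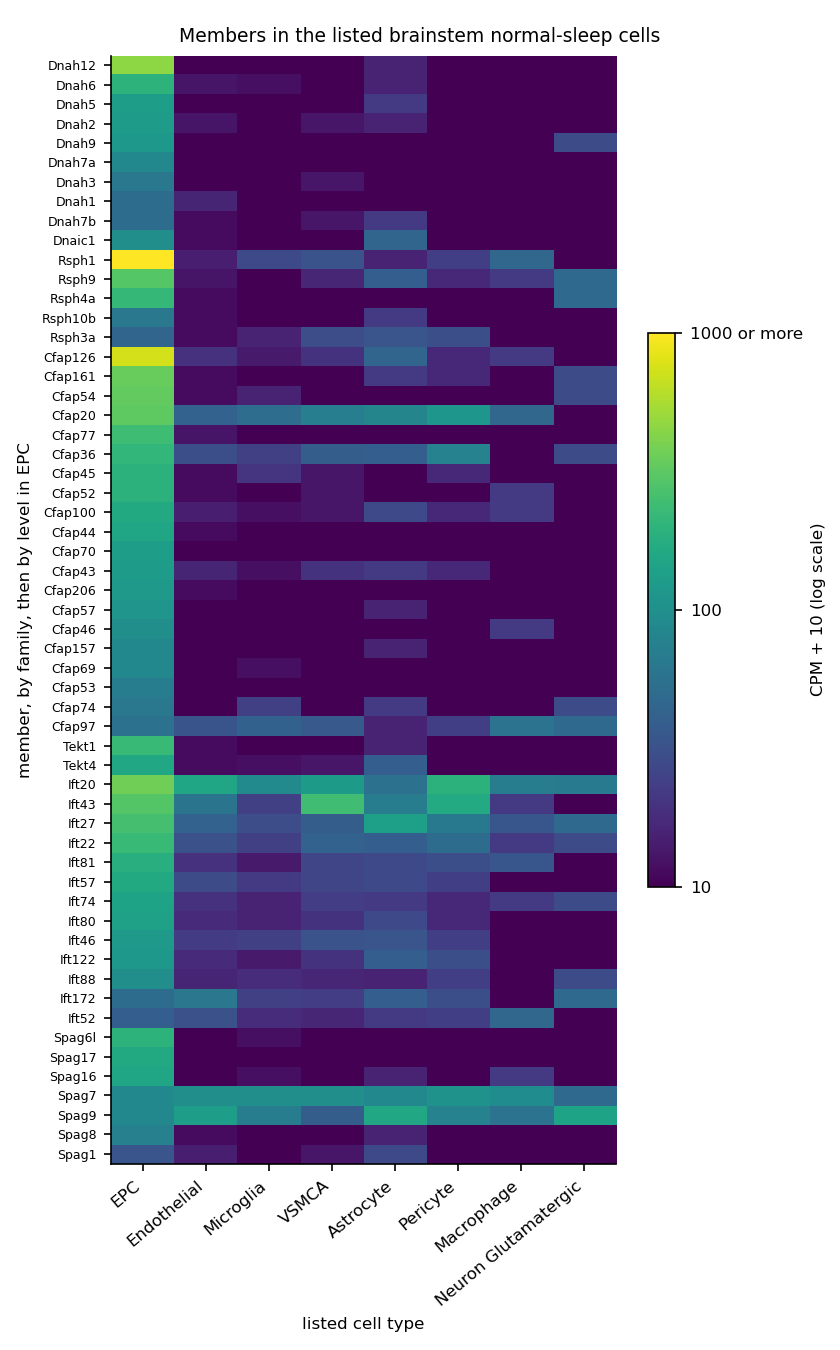
Level of the 57 members with at least 10 UMIs, as CPM + 10 on a log colour scale, in the 8 listed types of at least 50 cells of the brainstem NS library. Rows follow the families; the EPC column is bright for nearly all rows, and the Ift rows, Cfap20, Cfap36, Cfap97, Spag7 and Spag9 are also coloured in the other types.

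Other cilia genes were taken from 7 lists that leave the 78 members out. The lists include transport motors and the BBSome, so not all of these genes are particular to motile cilia. Of 99 tested, 86 were at least 2-fold higher in marker cells, beside the same 9.17% of all genes. Among regulators, 6 of 10 were 2-fold higher. Foxj1, the transcription factor of motile ciliogenesis, had 404 against 8.18 CPM and Myb, which acts in multiciliated cell differentiation, 146 against 1.68 CPM. Rfx3, an X-box factor, had 126 against 24.0 CPM. E2f4 and E2f5 had folds of 0.857 and 1.22. Foxj1, Dynlrb2 and Fam183b are also on the ependymal list above. All 11 dynein light chain and docking genes were 2-fold higher, led by Dynlrb2 at 1609 against 28.5 CPM, Dnali1 at 250 against 4.58 CPM and Tctex1d2 at 200 against 27.2 CPM. So were 8 of 9 dynein assembly factors (Pih1d2, Zmynd10 and Lrrc6 had 172, 113 and 73.1 CPM in marker cells) and all 11 nexin link and ruler genes (Ccdc113, Iqca and Lrrc48 had 288, 203 and 199 CPM).

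The list of central pair and other axonemal genes had 30 of 31 at least 2-fold higher. Fam183b reached 1336 CPM, the beta-tubulin Tubb4b 1210 CPM and Meig1 1073 CPM, against 91.1, 122 and 15.4 CPM in other cells. For transport motors and adaptors the count was 13 of 17, with Ttc30b at 255 against 10.2 CPM, Wdr60 at 156 against 18.7 CPM and Dync2li1 at 149 against 16.3 CPM. Kif3b, Kif17 and Ttc21b had folds of 0.900, 0.875 and 0.969. For the BBSome, which moves membrane proteins in cilia, the count was 7 of 10, with a median fold of 2.50. Bbip1, Lztfl1 and Ttc8 had 199, 145 and 114 CPM in marker cells. Cytoplasmic dynein 1, the motor of the cell body, is a list apart. Of its 16 genes, 3 were 2-fold higher (Dynll1, Dynlt1f and Dynlt1c), 1 was 2-fold lower (Dync1i1, 2.80 against 25.0 CPM), and the median fold was 0.866, below the 0.965 of all genes. Summed, however, the list was higher in marker cells, at 3852 against 2157 CPM. By library the sums were 3328 to 4063 against 1349 to 3101 CPM. Dynll1 had 2414 CPM, Dync1i2 429 CPM and Dynlrb1 225 CPM in marker cells, with folds of 3.15, 1.47 and 0.854.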

How the data were processed

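The authors mapped reads of 10x Genomics version 2 libraries to GRCm38 with Cell Ranger 2.2.0 and deposited 1 table of filtered UMI counts per gene and cell, whole numbers with no normalization. The annotation release is not given in the sources used here. The members and gene lists were chosen with earlier results of these data known. Libraries are the 9 codes in the column names. Library 7 was identified from the barcodes of 1999 cells that the study lists by type, of which 5 to 13 also occur in each other library.

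UMIs were summed over cells and given as counts per 1000000 UMIs (CPM), with exact 95% Poisson intervals; shares carry exact Clopper-Pearson intervals. A ratio has an exact interval conditional on the sum. A fold adds 10 CPM to both levels, is called at 2 or 0.5, and needs at least 10 UMIs, which all 78 members had. Cells were thinned without replacement to 500 UMIs. No cell was removed. Doublets were not called or removed. An alternative leaves out the deepest cells, and another the marker cells with UMIs of other classes' genes, which removes most marker cells. Named genes were, per family, the 5 with most marker-cell UMIs and the 3 lowest folds among those with at least 30 UMIs, members with no UMI, members not highest in EPC, and the 3 leading genes of each other list. Further genes were named after their values were seen. All 78 symbols were found in GENCODE M21. Sums and intervals were computed with scipy 1.17.1 and numpy 2.4.6, tables with pandas 2.3.3 under Python 3.11.15, and plots with matplotlib 3.10.9. The fold calls were tested on simulated data, and the results are not given here.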

Additional observations from a re-analysis of the deposited data

How the results depend on the processing

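No paired analysis was possible because matching samples between sleep groups needs more than 1 library per group, and only 1 library could be tied to its sample. Marker and other cells of the same library are compared in the report. The count of 65 members at least 2-fold higher was 65 or 66 when any 1 library was left out, 65 in libraries 4 to 9 only (an alternative chosen after seeing the data), and 62 to 69 under the other settings. Leaving out marker cells with 3 or more UMIs of another class's genes kept 196 of 1389 marker cells. It kept 19 of the 143 in library 7 and none in library 6, and other cells were not filtered in this way. In the brainstem NS library fewer genes were tested under stricter minimums. With 10 UMIs required in other cells alone, 40 of 47 members were 2-fold higher, beside 11.9% of all genes. With at least 50 UMIs required the count was 39. No share of all genes is given for that minimum, so this count is not set against them. Its summed ratio of 13.5 was 14.2 with a cutoff of 2 marker UMIs, 12.6 with 5, 12.3 without the 5% deepest cells of each library, 14.3 without marker cells of mixed classes, 14.9 against cells with no marker UMI, and 12.2 on totals without mitochondrial, hemoglobin, Gh, Prl, Pomc and Ttr UMIs; the cause was not tested. The median of 5 distinct members per marker cell was 8 at 1000 UMIs per cell and 12 without thinning, which rests on depth. The count of members highest in EPC was 49 to 62, but 18, of 25 tested, with at least 10 UMIs outside EPC. The minimums on other cells alone and outside EPC were chosen after seeing the data. The count of the other cilia genes was 81 to 91. No fold of a named member changed from one side of 1 to the other after being called.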
